A study of Mus musculus with 6 samples.

Results

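DNA replication and mitosis genes are described here in Lap2alpha KO and WT mouse dermal fibroblasts, through the accessible chromatin at and around 40 named genes. A peak belonged to a gene if its summit lay in the RefSeq GRCm38 span of that gene or within 10 kb of either end. By this rule 158 of 98072 KO peaks and 162 of 106132 WT peaks belonged to the 40 genes, and no peak belonged to more than 1 of them. The genes lie on 14 chromosomes.

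The assay was ATAC-seq: the transposase Tn5 cuts and tags DNA that is not covered by nucleosomes or other proteins. The KO group holds 3 libraries from cultured dermal fibroblasts that lack Lap2alpha, and the WT group 3 libraries from dermal fibroblasts with the protein, all grown in the same serum-containing medium. Lap2alpha is a splice form of lamina-associated polypeptide 2, the product of Tmpo. It lies in the nuclear interior, binds A-type lamins and has been linked to the retinoblastoma protein. How the KO cells were made, and whether the libraries came from separate animals, cultures or clones, is not given in the sources used here. Each genotype is represented by 1 combined peak list. The lists therefore hold no spread between libraries, no test between genotypes was possible, and differences below describe these 2 lists.

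A cell that enters S phase first licenses replication origins: the origin recognition complex, Cdc6 and Cdt1 load the ring of Mcm proteins that later unwinds DNA. Cyclin E and cyclin A with Cdk2 start synthesis, and cyclin B with Cdk1 drives mitosis, in which Aurora and Polo kinases build the spindle and the checkpoint of Bub and Mad proteins holds chromosomes until they are attached. Many genes of the first step are known targets of E2F factors, which the retinoblastoma protein restrains. Many mitotic genes are switched through an element called CHR, often together with CCAAT boxes bound by NF-Y, and B-Myb and Foxm1 act on the same genes late in the cycle. In dermal fibroblasts these programmes run in dividing cells and are silenced on withdrawal from the cycle.

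The promoters at the 2 ends of the ranking by start-site signal, and those that show the motif classes best, are printed first because all 40 start sites were open in both lists. Each stretch runs from 220 bases before the annotated start to 30 after it, on the coding strand in the 5' to 3' direction, as given by RefSeq for GRCm38.p6. Each of the 7 stretches lay wholly inside a KO peak and inside a WT peak. Capitals mark matches to E2F letters (TTTGGCGC, TTTGCCGC, TTTCGCGC or TTTCCCGC), to the CHR letters TTTGAA or to CCAAT, on either strand. Brca1 (chr11:101551926-101552175, minus strand) and Cdt1 (chr8:122567795-122568044, plus strand) had the highest KO start-site signal percentile of the genes with a promoter entry, and Mki67 (chr7:135716350-135716599, minus strand) and Ccnb1 (chr13:100786457-100786706, minus strand) the lowest. Cdk1 (chr10:69352883-69353132, minus strand) was the gene with E2F and CHR matches together. Mcm6 (chr1:128359676-128359925, minus strand), with most E2F matches, and Top2a (chr11:99024160-99024409, minus strand), with most CHR and CCAAT matches, were added after the matches were seen. The Cdt1 stretch holds no capitals, because its E2F letters start at base 33, counting the annotated start as the first base, beyond the stretch.
Brca1: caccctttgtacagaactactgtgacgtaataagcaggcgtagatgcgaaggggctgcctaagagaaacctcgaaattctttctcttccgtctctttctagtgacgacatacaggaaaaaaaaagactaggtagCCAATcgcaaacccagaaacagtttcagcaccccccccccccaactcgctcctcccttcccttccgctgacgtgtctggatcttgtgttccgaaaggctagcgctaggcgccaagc
Cdt1: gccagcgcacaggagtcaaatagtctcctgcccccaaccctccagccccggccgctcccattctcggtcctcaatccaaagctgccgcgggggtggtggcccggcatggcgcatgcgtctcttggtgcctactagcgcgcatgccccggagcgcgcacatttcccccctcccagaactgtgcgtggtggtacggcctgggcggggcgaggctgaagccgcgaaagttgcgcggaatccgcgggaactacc
Mki67: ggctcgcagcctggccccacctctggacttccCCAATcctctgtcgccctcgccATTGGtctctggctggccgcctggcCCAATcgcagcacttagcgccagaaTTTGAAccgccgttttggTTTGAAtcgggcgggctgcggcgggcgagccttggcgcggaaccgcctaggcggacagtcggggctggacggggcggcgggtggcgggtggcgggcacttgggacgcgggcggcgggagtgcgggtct
Ccnb1: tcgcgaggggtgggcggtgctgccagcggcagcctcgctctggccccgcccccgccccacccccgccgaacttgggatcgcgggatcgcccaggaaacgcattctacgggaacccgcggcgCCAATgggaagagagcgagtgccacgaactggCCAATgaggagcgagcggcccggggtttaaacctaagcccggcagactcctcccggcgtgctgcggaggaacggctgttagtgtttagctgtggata
Cdk1: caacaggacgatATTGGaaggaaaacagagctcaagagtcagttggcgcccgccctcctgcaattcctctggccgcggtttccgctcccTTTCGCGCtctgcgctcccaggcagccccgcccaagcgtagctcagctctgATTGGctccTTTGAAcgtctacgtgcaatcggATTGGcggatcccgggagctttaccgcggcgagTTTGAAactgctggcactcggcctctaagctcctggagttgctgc
Mcm6: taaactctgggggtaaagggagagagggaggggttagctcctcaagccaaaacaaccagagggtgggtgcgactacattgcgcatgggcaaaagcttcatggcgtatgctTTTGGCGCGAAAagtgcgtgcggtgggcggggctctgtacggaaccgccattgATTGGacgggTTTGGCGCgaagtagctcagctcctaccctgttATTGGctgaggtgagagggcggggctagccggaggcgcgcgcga
Top2a: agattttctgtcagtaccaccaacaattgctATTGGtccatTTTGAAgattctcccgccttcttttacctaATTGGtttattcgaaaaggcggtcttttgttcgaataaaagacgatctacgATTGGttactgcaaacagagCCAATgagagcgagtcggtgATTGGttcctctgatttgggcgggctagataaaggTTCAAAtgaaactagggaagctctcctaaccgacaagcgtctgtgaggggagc

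The lists covered 66.8 Mb in KO and 71.0 Mb in WT, and the KO list was shorter, at 92.4% of the number of WT peaks. The number of reads behind them is unknown. A genotype-only peak is one that no peak of the other list overlaps by at least 1 bp, and whether the other list narrowly missed that region cannot be seen in these values. The start of Tmpo carried a peak at signal percentile 95.1 in KO and 95.6 in WT, but other splice forms share that start, so it does not check the knockout. Of 12 dermal fibroblast markers, 11 had a start-site peak in KO and 11 in WT, and Lum, a dermal proteoglycan gene, had none in either. Ptprc of leukocytes, Krt5 of keratinocytes and Pecam1 of endothelium had none in either list. Keratinocyte and muscle markers had none (0 of 5 and 0 of 3 in each list). Leukocyte markers had such a peak at 2 of 5 genes in KO and 1 of 5 in WT. Endothelial markers had it at 1 of 4 and melanocyte and Schwann cell markers at 1 of 5 in each list.

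All 40 genes had a peak within 1 kb of a start site in KO and in WT. Over all 21887 protein-coding genes, 55.0% had a start-site peak in both lists, 1.08% in KO only and 2.01% in WT only, which makes 3.08% in 1 list only, against 0 of the 40. Start sites came from RefSeq promoters for 34 of the 40 genes. For Mcm4, Pole, Ccne2, Ccna2, Aurkb and Foxm1 either gene end was taken instead, as for the 4395 coding genes without a promoter entry. These peaks were among the strong ones of each list. The signal of a peak is used as a percentile within its own list (100 is the strongest), and over the 40 genes its median was 93.8 in KO and 94.0 in WT. The same median over all coding genes with such a peak was 89.9 in KO and 91.2 in WT. Above percentile 90 lay 25 of 40 genes in KO and 28 of 40 in WT, against 49.6% and 54.8% of all open genes. Since the lists differ in length, a percentile that differs between them shows no change by itself.

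**Figure D1:**
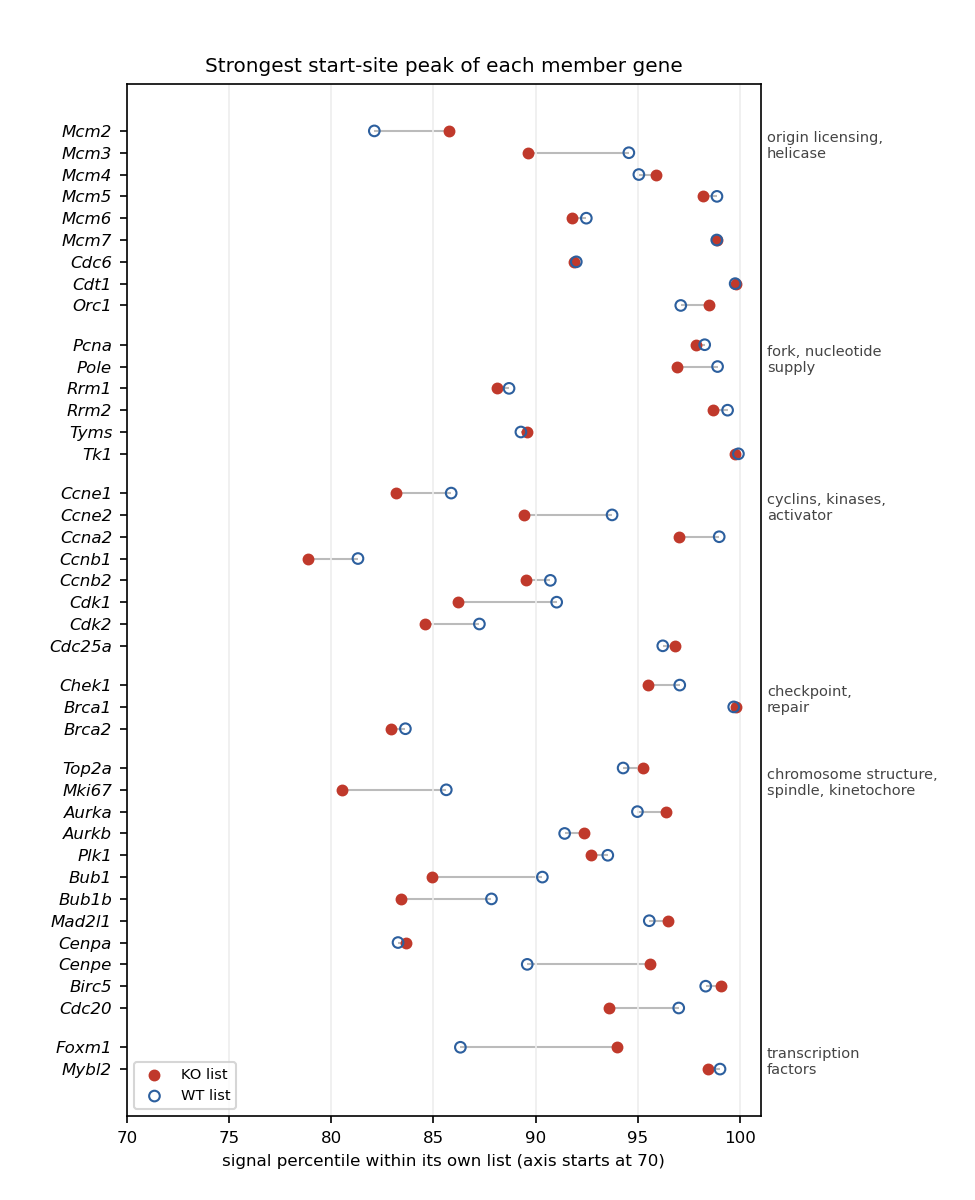
Signal percentile (x axis, from 70) of the strongest start-site peak of each of the 40 genes (y axis, by role), with filled points for the KO list and open points for the WT list. All points lie at or above 78.9 in KO and 81.3 in WT. The widest gap between the points is at Foxm1, with 94.0 in KO and 86.3 in WT, where both summits lie in the span of Rhno1.

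The genes of origin licensing and the helicase had start-site percentiles from 85.8 to 99.8 in KO and from 82.1 to 99.8 in WT. Cdt1, which loads the Mcm ring, stood at 99.8 in KO and 99.8 in WT, with the widest KO peak of all 40 genes at 3418 bp, against 2871 bp in WT. Mcm2, a subunit of the ring, was the lowest of the group, at 85.8 in KO and 82.1 in WT. Mcm5 and Mcm7, 2 more subunits, were near the top, with 98.2 and 98.9 in KO and 98.9 and 98.9 in WT. Ap4m1 starts 138 bp from a start of Mcm7 on the other strand. Mcm3 stood at 89.7 in KO and 94.6 in WT, in a 10 Mb block of chromosome 1 that held 64.9% as many KO as WT peaks. Mcm4 stood at 95.9 in KO and 95.05 in WT, Mcm6 at 91.8 and 92.5, and the licensing factor Cdc6 at 91.9 and 92.0. The Mcm4 summits lay outside its span, 42 bp from the gene end in KO and 114 bp in WT. The WT one lay in the span of the neighbour Prkdc. Orc1, a subunit of the origin recognition complex, stood at 98.5 in KO and 97.1 in WT, and its peak also covers the start of Prpf38a, 118 bp away on the other strand.

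Among the genes of the fork and the nucleotide supply, Tk1 and Rrm2 had the strongest start sites. Tk1, the cytosolic thymidine kinase gene, stood at 99.8 in KO and 99.9 in WT, and Afmid starts 95 bp away in the other direction. Rrm2, the small subunit of ribonucleotide reductase, stood at 98.7 in KO and 99.4 in WT. Its large subunit Rrm1 was lower, at 88.1 in KO and 88.7 in WT. Tyms, the thymidylate synthase gene, stood at 89.6 in KO and 89.3 in WT. Pcna, the sliding clamp, stood at 97.8 in KO and 98.3 in WT with the summit at the same base, at -107 bp from the start. Pole, the catalytic subunit of polymerase epsilon, stood at 96.9 in KO and 98.9 in WT. Here a single WT peak of 3291 bp overlapped 2 KO peaks, of which the one at the gene end was 2444 bp wide.

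Cyclin and kinase genes had the lowest median start-site percentile of the 6 role groups, 87.8 in KO and 90.9 in WT. Ccnb1, a cyclin of mitosis, was the lowest of all 40 in both lists, at 78.9 in KO and 81.3 in WT. The other genes of this group lay between 83.2 and 97.0 in KO and between 85.9 and 99.0 in WT. Ccna2, the cyclin of S and G2 phase, was highest, and its gene-end peak was 1778 bp wide in KO and 2981 bp in WT. That width ratio of 59.6% was the smallest of the 40, and the WT peak overlapped 3 KO peaks, so the KO list holds the region as separate pieces. Ccne1 and Ccne2, the cyclins of S phase entry, stood at 83.2 and 89.4 in KO and at 85.9 and 93.7 in WT. Cdk1, the mitotic kinase, stood at 86.2 in KO and 91.0 in WT, and Cdk2, its S phase relative, at 84.6 and 87.2. Both Cdk2 summits lay in the span of the neighbour Pmel. Ccnb2, the second B-type cyclin, stood at 89.5 in KO and 90.7 in WT. Cdc25a, the phosphatase that activates these kinases, stood at 96.8 in KO and 96.2 in WT with the same summit base.

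Brca1, a repair gene for double-strand breaks, had the highest KO start-site percentile of all 40 genes, 99.8 in KO and 99.7 in WT. Its peak spans the starts of Brca1 and Nbr1, which lie 152 bp apart on opposite strands (the nearest of the Nbr1 starts), and its summit lay at -769 bp from the Brca1 start in KO and at -681 bp in WT. Brca2, its partner in recombination repair, was among the 5 lowest in KO, at 83.0 in KO and 83.6 in WT. Chek1, the checkpoint kinase that answers stalled forks, stood at 95.5 in KO and 97.0 in WT.

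Genes of chromosome structure, spindle and kinetochore spanned percentiles from 80.5 to 99.1 in KO and from 83.3 to 98.3 in WT. Birc5, the survivin gene of the Aurora B complex, was highest, at 99.1 in KO and 98.3 in WT. Mki67, whose product coats mitotic chromosomes and marks cycling cells, was lowest in KO, at 80.5 in KO and 85.6 in WT, and Cenpa was lowest in WT. Cenpa, the centromeric histone H3, and Bub1b, a checkpoint kinase-like protein, stood at 83.7 and 83.4 in KO and at 83.3 and 87.8 in WT. Cenpe, a kinetochore motor, stood at 95.6 in KO and 89.6 in WT, in a block with 120.2% as many KO as WT peaks. Aurka and Aurkb, the Aurora kinases, stood at 96.4 and 92.4 in KO and at 94.98 and 91.4 in WT. Cstf1 starts 433 bp from the start of Aurka on the other strand. Top2a, the topoisomerase that untangles sister chromatids, stood at 95.2 in KO and 94.3 in WT. Mad2l1, Cdc20, Plk1 and Bub1 lay between 84.9 and 96.5 in KO and between 90.3 and 97.0 in WT. Of the transcription factors, Mybl2, which encodes B-Myb, stood at 98.4 in KO and 99.0 in WT. Foxm1, the forkhead factor of G2 and mitosis, stood at 94.0 in KO and 86.3 in WT, with widths of 2139 bp and 2222 bp. Both summits lay outside the Foxm1 span and in that of the neighbour Rhno1, and a gene end was used here as the start.

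The position of these peaks was nearly the same in the lists. At 33 of 40 genes the summits of the strongest start-site peaks lay within 50 bp of each other, and at 8 they fell on the same base. Over the 12048 coding genes open in both lists, 72.4% were within 50 bp. Where a gene had 1 annotated start (33 genes), the peak covered that start in every case in both lists, against 90.4% of such genes in KO and 90.1% in WT. Summits lay before the start at 27 of 33 genes in KO and 26 of 33 in WT, against 69.3% and 68.7% of all such genes. The median positions were -83 bp in KO and -87 bp in WT, against -59 bp and -60 bp. The summit moved by over 1 kb at Rrm2 and Bub1. The KO summit of Rrm2 lay at -40 bp from the start and the WT summit at -1264 bp. The KO summit of Bub1, a checkpoint kinase gene, lay at -82 bp and the WT summit at -1106 bp. In both cases the KO and WT peaks overlapped, so a single broad region was called with another highest point. Median widths were 1804 bp in KO and 1840 bp in WT, against 1491 bp and 1567 bp over all open genes. The KO peak was the narrower one at 27 of 40 genes, against 61.7% of all genes open in both lists.

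Peaks away from the start sites were weaker and partly belonged to neighbours. Another protein-coding gene reached into the window of 32 of the 40 genes. With the summit over 1 kb from a start site there were 115 KO and 119 WT peaks. Of these, 14 and 14 were in the top decile of their list. Among the top-decile peaks, 10 and 10 lay at the start of another coding gene with a promoter entry. The WT numbers of 119 and 14 both include the broad start-site peaks of Rrm2 and Bub1, whose WT summits lie further out. These 2 peaks stood at 99.4 and 90.3 in WT. Examples at the start of another gene are the KO and WT peaks at percentiles 99.3 and 98.6 downstream of Orc1, at the start of Cc2d1b. Those beside Tk1 at 99.3 in KO and 99.4 in WT lay at the start of Syngr2. No peak in a gene body reached the top decile in either list, and the median gene-body percentile was 35.1 in KO and 34.4 in WT. Beside Aurkb, 2 peaks stood out that had no start of another coding gene with a promoter entry within 1 kb. They stood at 98.2 and 99.7 in KO and at 98.8 and 99.7 in WT. Downstream of Cdc6, 2 peaks in the span of Rara had no such start either. They stood at 94.2 and 90.5 in KO, and below the top decile in WT, at 89.3 and 88.7. Downstream of Cdt1, at the start of Aprt, the KO peak was 1703 bp wide at percentile 92.6, and the WT peak was 4556 bp wide at 98.8 and overlapped 2 KO peaks. Aurka had 2 KO and 4 WT peaks with no genotype-only peak among them, since its KO start-site peak overlapped 2 WT peaks and the WT peak at the start of Fam210b overlapped a KO peak whose summit lay outside the window.

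Genotype-only peaks were few. Of the 158 KO peaks 15 were KO-only, and of the 162 WT peaks 23 were WT-only. These are shares of 9.49% in KO (exact 95% binomial interval 5.41 to 15.2) and 14.2% in WT (9.22 to 20.5). In the windows of all protein-coding genes 12.1% of KO peaks were KO-only and 18.3% of WT peaks WT-only. Both background values lie inside the intervals, which cover counting only. The direction of the excess depended on the list length: with both lists limited to the 73554 peaks of highest signal, 21 of 130 KO peaks were KO-only and 10 of 116 WT peaks were WT-only. The background was then 13.8% in KO and 13.5% in WT. When a partner within 1 kb also counted, 12 KO-only and 11 WT-only peaks were left, because 12 of the 23 WT-only peaks had a KO peak nearby, as had 3 of the 15 KO-only peaks. These are 7.59% of KO and 6.79% of WT peaks, against 9.39% and 13.1% over all coding genes under the same rule.

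**Figure D2:**
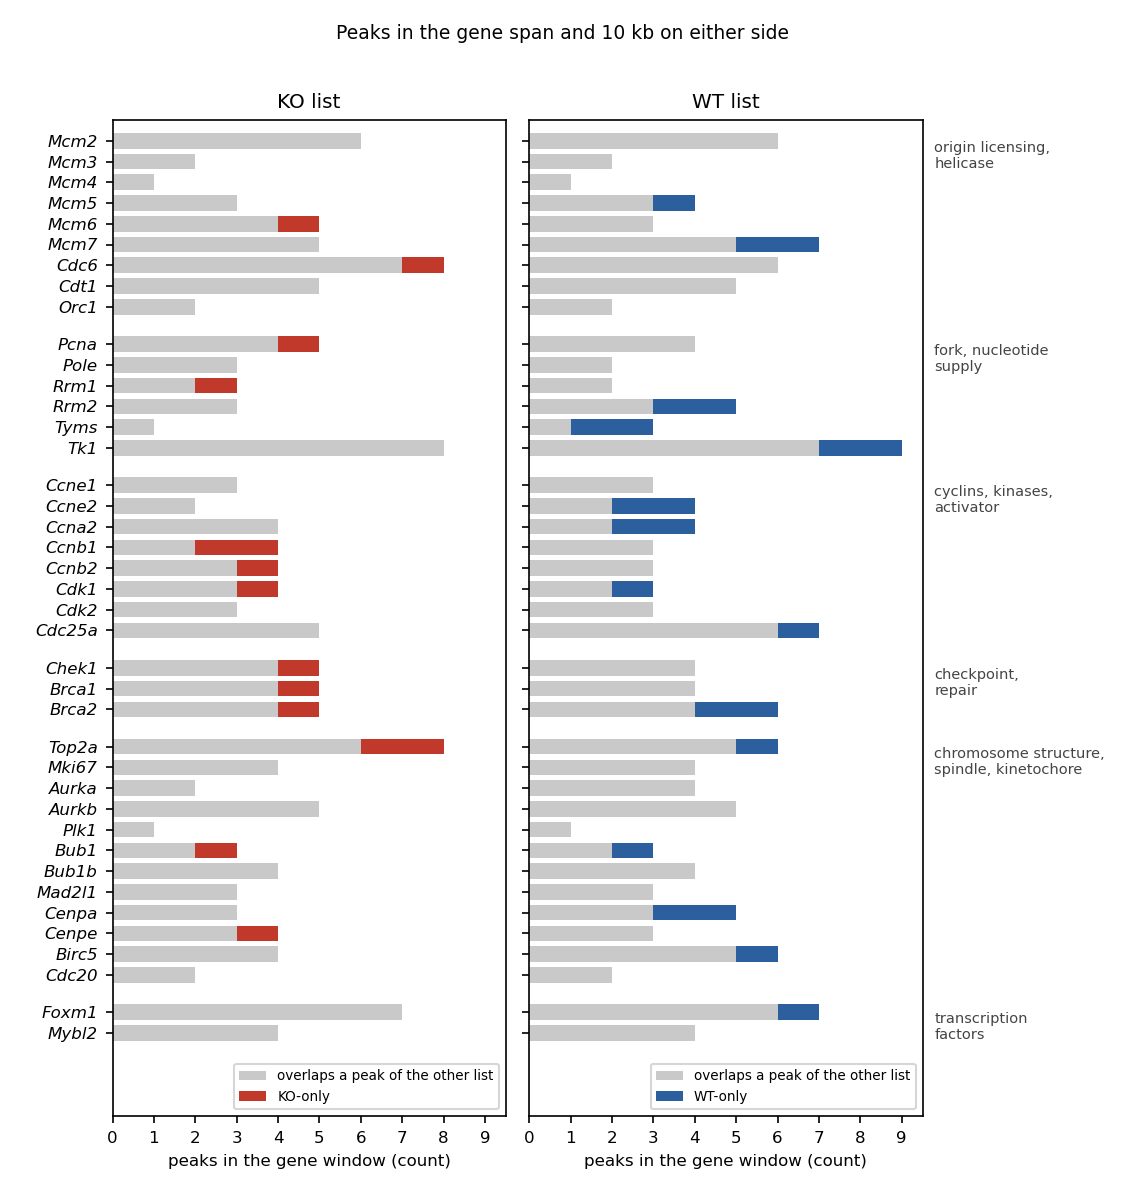
Number of peaks (x axis) in the span of each gene and 10 kb on either side (y axis, by role), in the KO list on the left and the WT list on the right, with genotype-only peaks in colour. KO bars hold 15 coloured peaks at 13 genes and WT bars 23 at 15 genes, and no bar exceeds 8 peaks in KO or 9 in WT.

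KO-only peaks outnumbered WT-only peaks at 10 of the 40 genes, against 20.0% of the 17741 coding genes with a peak in the window. WT-only peaks outnumbered KO-only peaks at 12 of the 40, against 38.9%. At the remaining 18 the numbers were equal, and 16 of these held no genotype-only peak, against 34.8%. At least 1 KO-only peak was found at 13 genes, against a background of 31.5%, and at least 1 WT-only peak at 15 genes, against 49.3%. With this window and overlap no gene differed by more than 2 peaks. With lists of equal length the number of KO-only minus WT-only peaks was 3 at Mki67, and with a flank of 50 kb it was -6 at Birc5 and -4 at Mcm5, Pole and Tk1. KO and WT had the same number of peaks at 17 of the 40 genes, KO had more at 12 and fewer at 11. The 10 Mb blocks around the genes held from 64.9% to 120.2% as many KO as WT peaks. Blocks above the genome ratio of 92.4% held 22 of the 40 genes. Among these were 5 of the 10 genes with a KO-only excess and 8 of the 12 with a WT-only excess.

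KO-only peaks were mostly weak, with a median signal percentile of 17.7, against 15.5 for the KO-only peaks of all coding genes. Of the 15, 8 lay in a gene body, 4 upstream, 2 downstream and 1 at a start site. The strongest lay 38042 bp downstream of the start of Rrm1, on GRCm38 chromosome 7 from 102479217 to 102480154, at percentile 73.1 and with no WT peak within 1 kb. It lies near the edge of the window, nearer to the olfactory receptor gene Olfr543, and with each peak given to its nearest gene alone the difference at Rrm1 was 0. It was the only KO-only peak in the upper 50% of the KO list, where the background is 1.86% and the 40 genes had 90 peaks. Ccnb1 had 2 KO-only and 0 WT-only peaks, the largest KO excess with this window, and a difference of 0 with lists of equal length. They lay in the gene body on chromosome 13 from 100780171 to 100780395 at percentile 17.7, and 499 bp after the start from 100785948 to 100786062 at 5.58. The first also falls within 10 kb of the neighbour Cenph. The second had a WT peak within 1 kb, and the difference was 1 when such a partner counted. Top2a had 2 KO-only peaks against 1 WT-only peak, at percentiles of 11.6 and 12.5 in KO and 11.2 in WT. Chek1 had a KO-only peak 4296 bp upstream, in the span of Stt3a, at percentile 42.3. Ccnb2 had a KO-only peak in the gene body at percentile 40.9, and Cenpe had one 5706 bp upstream at 38.5. The KO-only peak of Mcm6 lay 1098 bp upstream at percentile 34.4 and had a WT peak within 1 kb. Those of Cdc6 at 27.0 and Brca1 at 19.8 lay in the gene bodies. That of Pcna stood at percentile 0.114, at the start of Tmem230. Brca2, Bub1 and Cdk1 had 1 KO-only peak each, at 14.3, 7.88 and 3.21, beside 2 WT-only peaks at Brca2, at 9.43 and 10.3, and 1 each at Bub1 and Cdk1, at 4.28 and 5.93.

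WT-only peaks were also weak, with a median percentile of 19.0, against 16.6 for the WT-only peaks of all coding genes. Of the 23, 9 lay in a gene body, 5 downstream, 3 at a start site and 2 upstream, and 4 beside genes without a promoter entry, where the sides cannot be named. The only WT-only peak in the upper 50% of the WT list lay in the body of Tyms on chromosome 5 from 30039902 to 30040336, at percentile 53.6, where the background is 2.52% and the 40 genes had 92 peaks. A second WT-only peak, at 22.3, lay downstream of Tyms, and the KO list held only the start-site peak there. An excess of 2 WT-only peaks with 0 KO-only peaks was also found at Mcm7, Rrm2, Tk1, Ccne2, Ccna2 and Cenpa. At Ccna2 the WT-only peaks stood at percentiles of 31.2 and 33.7 in the spans of the neighbours Exosc9 and Bbs7. At Ccne2 they stood at 14.3 and 32.2, one of them in the gene body. The blocks around Ccna2 and Ccne2 held 76.8% and 77.0% as many KO as WT peaks, so a regional difference cannot be told apart there. At Tk1 they stood at 1.02 and 29.9, both with a KO peak within 1 kb. At Mcm7 they stood at 10.2 and 19.0, also both near KO peaks. At Rrm2 they stood at 7.79 and 25.1 and at Cenpa at 9.86 and 27.5. Birc5, Foxm1, Cdc25a and Mcm5 had 1 WT-only peak and 0 KO-only peaks each, at percentiles of 34.1, 31.2, 19.3 and 4.39. The direction of the excess turned at Cenpa and Mcm5 with lists of equal length, at Brca2 when a partner within 1 kb counted, and at Mcm6 with a flank of 50 kb.

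**Figure D3:**
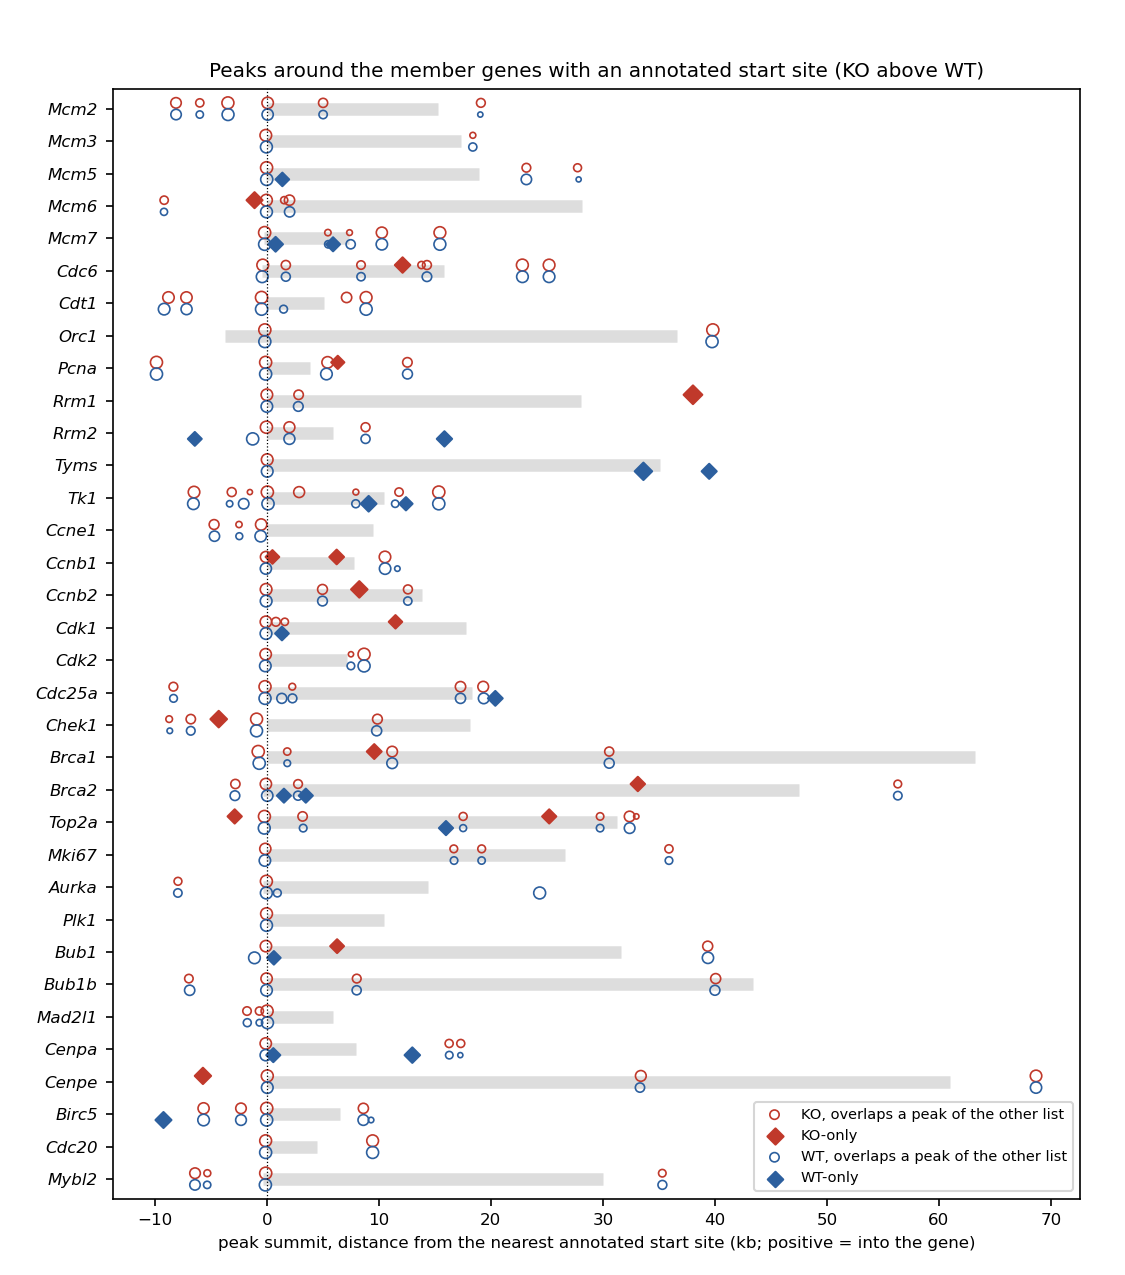
Peak summits by distance from the nearest annotated start site (x axis, kb) for the 34 genes with one (y axis), KO above WT in each row. Grey bars are gene spans, symbols grow with the signal percentile, open circles overlap a peak of the other list and diamonds are genotype-only. Large circles stand within 1 kb of 0 in every KO row and in every WT row except Rrm2 and Bub1, whose WT summits lie at -1264 bp and -1106 bp, and the KO-only diamond of Rrm1, 38042 bp from the start, has no WT partner.

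By role, the share of overlapping peaks varied on small numbers. Over all coding genes 87.9% of KO peaks were shared with WT and 81.7% of WT peaks with KO. Shared with WT were 94.6% of 37 KO peaks at licensing and helicase genes, and shared with KO were 91.7% of 36 WT peaks there. At fork and nucleotide genes the shares were 91.3% of 23 KO peaks and 76.0% of 25 WT peaks, and at cyclin and kinase genes 86.2% of 29 and 80.0% of 30. At spindle and kinetochore genes they were 90.7% of 43 and 89.1% of 46. At the 3 checkpoint and repair genes they were 80.0% of 15 and 85.7% of 14, and at the 2 transcription factor genes 100.0% of 11 and 90.9% of 11. These groups hold too few peaks to be set apart from each other by counts.

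Sharing followed signal strength, as over all genes. In the top decile of the KO list 39 peaks belonged to the 40 genes and 0 were KO-only, and in that of the WT list 40 peaks belonged to them and 0 were WT-only. Over all coding genes 0.0495% of KO peaks in that decile were KO-only and 0.0678% of WT peaks WT-only, so a count of 0 there is no result about the 40 genes. That decile held 24.7% of the KO and 24.7% of the WT peaks of the 40 genes, against 11.8% and 12.1% of peaks in the windows of all coding genes. For other pathway genes, described below, it held 20.5% and 22.1% at replication genes and 20.3% and 23.3% at mitosis genes. At CDK inhibitor and D cyclin genes it held 21.6% and 23.7%, and at Rb and E2F genes 14.6% and 15.2%. In the lowest decile 4 of 12 KO peaks and 7 of 16 WT peaks were genotype-only, against 43.7% and 61.3% over all coding genes. Most deciles hold fewer than 20 peaks of the 40 genes, so single deciles carry little weight.

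**Figure D4:**
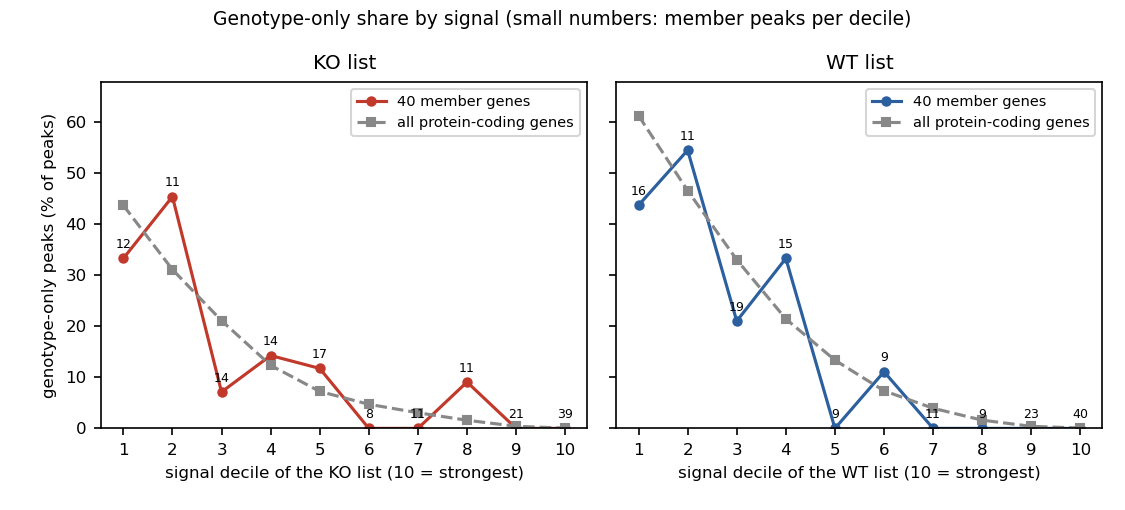
Percent of peaks that are genotype-only (y axis) by signal decile of the list (x axis, 10 is strongest), for the 40 genes (solid) and all protein-coding genes (dashed), KO on the left and WT on the right. The small numbers are the peaks of the 40 genes in each decile, and in deciles 9 and 10 no such peak was genotype-only in either list.

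E2F letters were most frequent at licensing genes and CHR letters at spindle genes, while CCAAT was about equally frequent in both. Promoters were searched over 300 bases, from 250 before the start to 50 after it, for the 34 genes that had one. E2F letters were found at 11 of 34, against 3.29% of 17492 coding genes. By role they were found at 7 of 8 licensing and helicase genes and 3 of 6 cyclin and kinase genes, and at 0 of 11 spindle and kinetochore genes and 0 of 5 fork and nucleotide genes. In the shorter stretch from 100 bases before the start to 50 after it, 6 of 34 held E2F letters, against 1.8% of all. Positions give the first base of a match. Positive values count the annotated start as the first base, and negative values lie before it. Mcm6 had 3 E2F matches, at -110, -106 and -47, of which the first 2 overlap, all in the printed stretch. CHR letters were found at 10 of 34, against 18.5% of all, and 7 of the 10 were spindle and kinetochore genes. Top2a had CHR letters at -179 and -23 and 6 CCAAT matches, 5 of them in the printed stretch. Mki67 had CHR letters at -116 and -98 and 3 CCAAT matches. CCAAT was found at 24 of 34 promoters, against 42.3% of all, with 6 of 8 licensing and helicase genes and 9 of 11 spindle and kinetochore genes among them. Cdk1 alone had E2F and CHR letters together, with E2F letters at -131 and CHR letters at -71 and -15, while 0.52% of all promoters hold both. Ccnb1 had 2 CCAAT matches and no E2F or CHR letters in this window. Brca1 had a single CCAAT at -86. None of the 3 motifs was found at 7 of the 34 promoters. The promoters were rich in CpG, with a median of 23.5 CpG sites in 300 bases against 15 over all. A match of letters is a description of sequence and not a measured binding site. Only these exact letters were searched, so a promoter without a match is not shown to lack such an element.

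**Figure D5:**
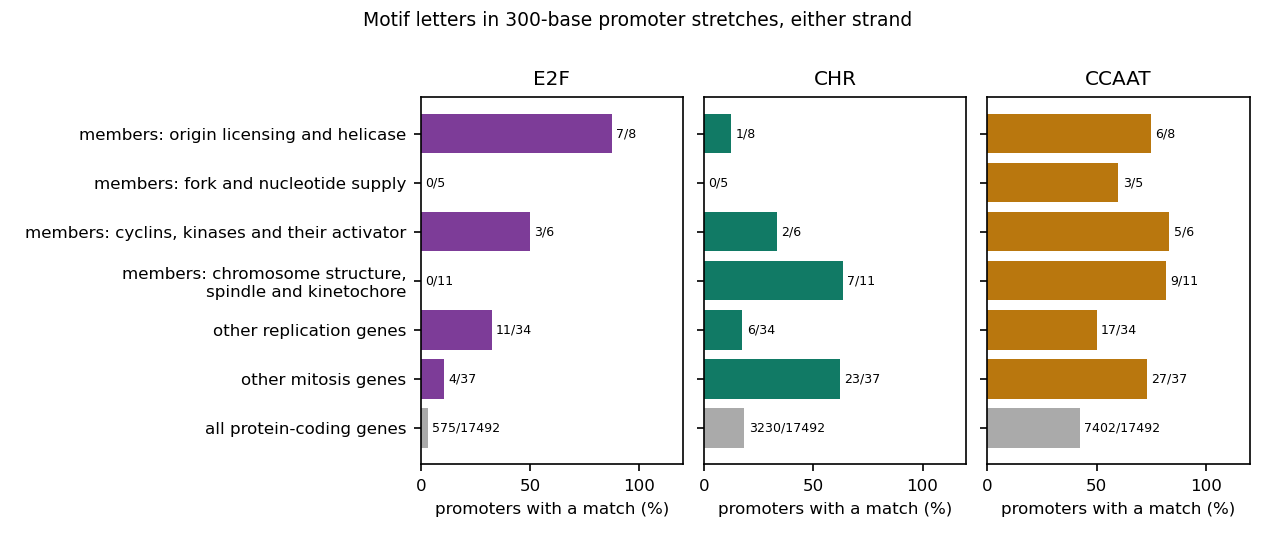
Percent of promoters (x axis) with E2F, CHR or CCAAT letters on either strand, by role for the larger groups among the 40 genes and for other replication genes, other mitosis genes and all protein-coding genes (y axis), with the counts beside each bar. E2F letters are at 7 of 8 licensing and helicase genes and CHR letters at 7 of 11 spindle and kinetochore genes.

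Other genes of the pathway showed the same open start sites. Of 45 further replication genes 44 had a start-site peak in both lists, and Timeless, a fork protection gene, had none in either. Of 45 further mitosis genes 44 had one in both lists, and Kif2c, a microtubule-depolymerising kinesin, had none in either within 1 kb of the start used here. All 18 Rb and E2F genes had one in both lists, with E2f1 at 99.9 in KO and 99.6 in WT. E2f6 was low, at 38.2 in KO and 43.6 in WT, and so was Tfdp2, a dimer partner of E2F, at 4.94 in KO and 34.9 in WT. Among 14 CDK inhibitors, D cyclins and related genes 13 had one in both lists and Cdkn1c, an imprinted inhibitor, had none in either. None of these genes had a start-site peak in 1 list only.

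Genotype-only peaks in these lists are read against the background of 12.1% in KO and 18.3% in WT. They were 20 of 205 KO and 36 of 217 WT peaks at the replication genes, and 29 of 217 KO and 46 of 236 WT peaks at the mitosis genes. At the Rb and E2F genes they were 14 of 103 KO and 24 of 112 WT peaks, and at the CDK inhibitor and D cyclin genes 6 of 88 KO and 9 of 93 WT peaks. KO-only peaks had median signal percentiles of 23.4, 15.5, 9.14 and 31.5 in the same order, and WT-only peaks 15.8, 9.10, 14.3 and 18.8. WT-only peaks outnumbered KO-only peaks at 18 of 45, 19 of 45, 7 of 18 and 5 of 14 genes, against 38.9% of all. The reverse held at 9 of 45, 9 of 45, 5 of 18 and 2 of 14, against 20.0%. The genes named next were chosen by the size of their excess, and its cause was not tested. Among the genes with the largest excess in each list, E2f6 had 3 KO-only and 0 WT-only peaks. The counts were 2 against 0 at Lig1, the replicative DNA ligase, and at Nuf2 and Cenpm of the kinetochore, and at Cdkn2c, an inhibitor of Cdk4 and Cdk6. Tfdp1 had 3 KO-only against 1 WT-only peak. In the other direction, 0 KO-only and 5 WT-only peaks were found at Kif2c and at Rbbp4, a histone-binding partner of Rb complexes. E2f4 followed with 0 against 4, Prim2, a primase subunit, with 2 against 6, and Pola2, of polymerase alpha, with 1 against 4. Kif4, a chromosome-bound kinesin on chromosome X, had 0 against 3 and Cdkn2d 0 against 2. Gins1 and Cdk6, chosen by the same ranking, had 1 against 0 and 2 against 1, and Cdkn2a had 0 against 1.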

How the data were processed

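ATAC-seq was made from 3 Lap2alpha KO and 3 WT dermal fibroblast libraries, and 1 deposited narrowPeak list per genotype was used. Bowtie2 2.5.1, Genrich and deepTools 3.5.1 with the build GRCm38 are named, per the submitters' processing notes. Settings, any Tn5 shift and how the libraries were combined are not given in the sources used here. In the deposited lists the signal of a peak is unscaled between lists and grows with peak length. The deposited score is at its ceiling of 1000 in 95.01% of KO and 94.85% of WT peaks and was not used. The deposited -log10 p of the summit served only as a threshold.

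Summits were assigned to RefSeq gene spans with 10 kb on either side. Lists were compared by overlap of at least 1 bp. Signal was turned into a percentile within its list. Intervals are exact (Clopper-Pearson, 95%) and cover counting error only. Code was tested on simulated peaks and against bedtools 2.31.1, with Python 3.11.15, pandas 2.3.3 and scipy 1.17.1. The genes and lists were chosen with earlier results of these data known. Genes were named by the size of their excess of genotype-only peaks, by the extremes of start-site percentile and width, by most peaks in each role, and by a genotype-only peak in the upper 50% of a list. All other genes of the 40 are given as well. Alternatives changed the flank, the overlap, the list length, the thresholds and the promoter stretch.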

Additional observations from a re-analysis of the deposited data

How the results depend on the processing

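No paired analysis was possible because each genotype has 1 combined list. Read depth is unknown, so a peak missing from a list may lie just under its threshold. KO-only peaks numbered 39 with a flank of 50 kb, 9 with no flank, 41 with a reciprocal overlap of 50%, 2 at a summit -log10 p of at least 10 and 1 in the upper 50% by signal. These are 9.18%, 14.3%, 25.9%, 2.11% and 1.11% of KO peaks, against 12.4%, 13.2%, 26.7%, 1.52% and 1.86% over all coding genes. WT-only peaks numbered 58, 12, 44, 1 and 1 in the same order, 10 with lists of equal length and 11 with a partner within 1 kb. Their shares of WT peaks were 13.5%, 19.0%, 27.2%, 1.06%, 1.09%, 8.62% and 6.79%, against 18.8%, 19.2%, 31.3%, 2.15%, 2.52%, 13.5% and 13.1% over all coding genes. The shared share of KO peaks was 83.8% with equal lengths, 74.0% with the reciprocal overlap, 97.9% at that p and 98.9% in the upper 50%. That of WT peaks was 91.4%, 72.8%, 98.9% and 98.9%, and 93.2% with a partner within 1 kb. The threshold of 10 was chosen after seeing the data, because the planned 5 removed 2 KO and 4 WT peaks from the whole lists. With the summit in place of overlap, 1 gene (Rrm2) had a start-site peak in 1 list only. E2F letters were found at 6 of 34 promoters from 100 bases before to 50 after the start. The KO-only minus WT-only difference turned to 1 at Brca2 with a partner within 1 kb, to 2 at Cenpa and 1 at Mcm5 with equal lengths, and to -1 at Mcm6 with the 50 kb flank. The cause was not tested.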
